A study of Homo sapiens with 14 samples.

Results

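The material held by Flag beads from cells with a tagged EMC7 subunit was compared with the microsome extract it was taken from. EMC7 belongs to the EMC, the membrane protein complex of the endoplasmic reticulum (ER), and the comparison asks which messages were being translated on ribosomes held with it. It rests on 4 of the 14 libraries of the series, chosen by their labels alone: 2 inputs and 2 IPs of the EMC7 line, which share the replicate numbers 1 and 2. Ribosome-protected fragments (footprints) were counted for 19440 gene symbols, of which 9478 had enough counts to be tested. The cells were Flp-In T-REx 293, an established human embryonic kidney line of the HEK293 family, with a doxycycline-inducible 3Flag-EMC7 transgene. All groups used here were induced with 0.5 to 1.0 ng/mL doxycycline, were harvested after 72 h with cycloheximide in the buffers, which holds ribosomes on their messages, and had their microsomes treated with micrococcal nuclease before they were solubilized. The labels name no knockout in the EMC7 line, and do not say whether it is 1 clone. The series also holds 2 inputs and 2 IPs of a line with 3Flag-EMC6 in an EMC6 knockout, and 3 of each from a line with 3Flag-EMC10, which serve here as the other baits.

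The EMC is an insertase. It places into the ER membrane transmembrane segments that the Sec61 channel handles poorly, among them some tail anchors and the first segment of many multi-pass proteins whose N-terminus ends up in the lumen. EMC3 and EMC6 form the membrane groove through which segments pass, EMC2, EMC8 and EMC9 lie in the cytosol, and EMC1, EMC7 and EMC10 carry domains in the ER lumen, of which that of EMC1 is the largest. A ribosome held by a tagged EMC subunit brings along footprints of the message it is translating, so that enrichment in the IP is measured message by message.

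The inputs held 3395114 and 2397165 gene counts and the IPs 2248591 and 1477225. The EMC7 message itself took 0.534% and 0.602% of the counts in the inputs and 14.4% and 15.0% in the IPs, whereas in the 5 inputs of the other lines it took 0.0178% to 0.0433%. It is treated apart below, and the rows of the 3 bait genes were left out of every library size. Replicates correlated at r = 0.985 for inputs and 0.966 for IPs across genes, on log2-scaled counts, against 0.910 and 0.905 between the input and the IP of a pair. The series has no IP from untagged cells, so messages held by the complex and messages that stick to beads cannot be told apart. Nothing in the labels makes the replicates separate cultures, and p-values here cover the spread among libraries, which may be technical. Of the transcription factors fixed as markers of kidney lineage and reported here, PAX2 and EYA1 had at most 6 in any library, and PAX8 and LHX1 had 0. Of the markers of other cell types PTPRC, HBB, HBA1, ALB, PECAM1, GFAP, COL1A2 and KRT5 had 0 counts in all 4 libraries, and COL1A1, of fibroblasts, had 1 to 20.

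Of all classes, messages of multi-pass membrane proteins gained the most percentage points in the IPs. Their 1270 genes took 11.8% of the counts in each input and 31.4% and 29.2% in the IPs, or 2.66 and 2.48 times the share in the input of the same number. Single-pass proteins took 6.14% and 5.78% in the inputs and 6.43% and 6.57% in the IPs. Secreted and luminal proteins, 218 genes, took 14.3% and 13.6% in the inputs and 12.3% and 13.0% in the IPs. The share of cytosolic proteins went from 6.51% and 6.99% to 2.78% and 3.00%, and that of nuclear proteins from 3.79% and 3.81% to 1.49% and 1.62%. The 16632 genes in no list made up 53.1% and 53.5% of the inputs and 39.8% and 40.9% of the IPs. These shares use every gene, whether tested or not, and no scaling other than library size without the bait rows, so a gain in 1 class lowers the shares of the others. Inputs and IPs did not overlap in any of these classes, and lay closest together for single-pass and for secreted and luminal proteins.

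**Figure D1:**
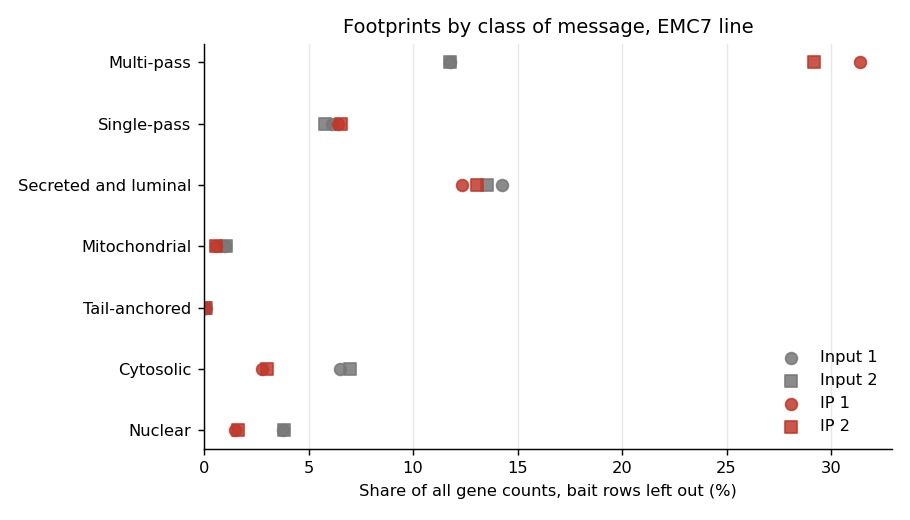
Share of all gene counts, in percent and without the bait rows, taken by 7 classes of messages in each of the 4 EMC7 libraries (grey inputs, red IPs; circles replicate 1, squares replicate 2). The multi-pass class stood at 11.8% in both inputs and at 29.2% and 31.4% in the IPs, while the cytosolic class stood at 6.51% and 6.99% in the inputs and at 2.78% and 3.00% in the IPs.

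Per gene, 1908 messages rose and 1024 fell in edgeR's quasi-likelihood test at a Benjamini-Hochberg adjusted p of 0.05, which is 20.1% and 10.8% of the genes tested and 30.9% together. In 1905 of the risen genes both IPs lay above both inputs, and in all 1024 of the fallen genes both lay below, against 28.8% and 37.7% of all genes tested. The calls were made on these same libraries, so this order follows largely from the choice of genes. Of the rises 1528 were over 2-fold, 606 over 4-fold and 127 over 8-fold, while 287 falls were over 2-fold and 21 over 4-fold. Since a large part of the IP counts moved to 1 class, the split depends on the scaling: 1980 rose and 722 fell with DESeq2 size factors, 2209 and 77 with libraries scaled on the cytosolic lists, 1333 and 3740 scaled on the secreted lists, and 1196 and 5144 by library size without the bait rows. With IP and input of a replicate number as a block 2072 rose and 1590 fell. Without input 1, IP 1, input 2 and IP 2 the fallen genes numbered 582, 460, 666 and 570. The median log2 change of all genes tested was -0.16, and medians of lists are given below as their distance from it, which another scaling leaves nearly as it is. Changes of single genes are log2 (IP over input) ± SE with the scaling of edgeR's trimmed mean of M-values (TMM), and levels are TMM-normalised CPM (counts scaled to a common library size), mean ± SD with n = 2 for each fraction.

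**Figure D2:**
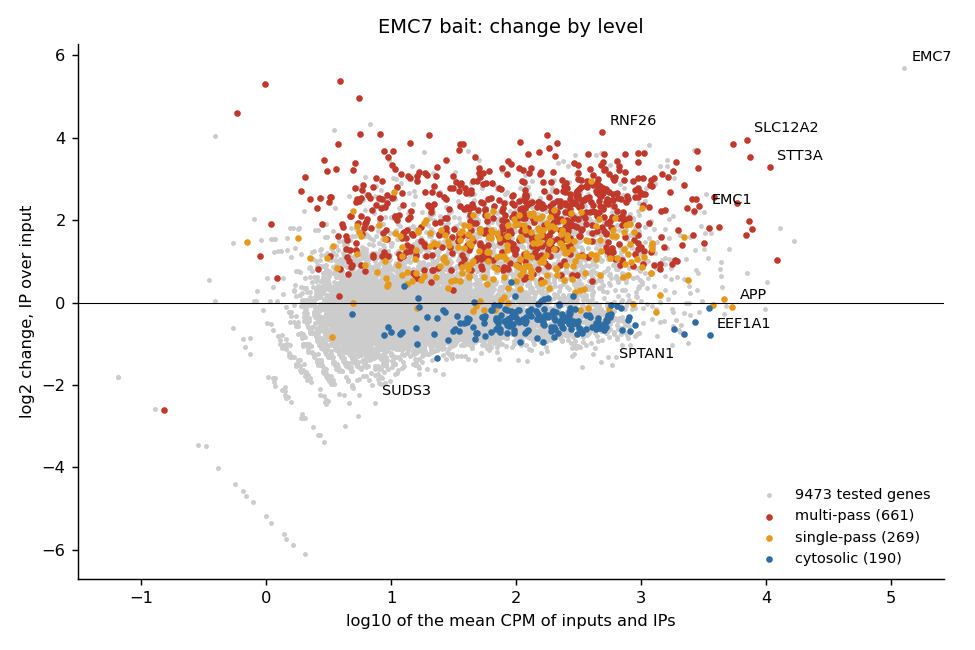
log2 change (IP over input, EMC7 bait) against the log10 mean CPM of 9473 tested genes, leaving out 5 with no count in these libraries; red points are multi-pass, orange single-pass and blue cytosolic proteins. Multi-pass messages lay mostly above 1 at every level, and cytosolic messages in a narrow band below 0; the rays at the lower left are genes with few counts.

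EMC7 itself gave 18114 and 14436 counts in its inputs, and 323643 and 220934 in its IPs. Its gene lies on chromosome 15 from 34084017 to 34101862 (GRCh38), and tagged and endogenous messages share these counts. The change was 5.69 ± 0.29 (adjusted p = 4.59e-12), the largest of all genes tested. With the EMC6 and EMC10 baits, where the cells carry no tagged EMC7, the same message rose by 3.24 and 2.88.

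Among the other messages that rose in both pairs and reached 10 CPM in the IPs, the 20 largest rises ran from 3.68 to 4.95, and 18 of them belong to a list of multi-pass or TMEM-named proteins. The Na-K-Cl cotransporter SLC12A2 (chromosome 5, 128083766 to 128189677) had 3379 and 2370 counts in the inputs and 18728 and 10509 in the IPs. Its CPM went from 853 ± 26.5 to 13241 ± 1895, a change of 3.96 ± 0.17 (adjusted p = 5.84e-19), with both IPs far above both inputs. RNF26 (chromosome 11, 119334527 to 119337309), an ER-anchored ubiquitin ligase that positions endosomes, had 202 and 150 counts in the inputs and 1277 and 755 in the IPs (4.14 ± 0.19, adjusted p = 1.12e-18). PIGV, which adds the second mannose of the GPI anchor, had 84 and 51 counts in the inputs and 504 and 244 in the IPs (4.07 ± 0.28). LMF2, a relative of the ER lipase maturation factor and in no list, rose from 377 ± 0.064 to 4945 ± 468 CPM (3.71 ± 0.17). TMEM115, a Golgi membrane protein, went from 153 ± 25.1 to 2180.2 ± 330.2 CPM (3.83 ± 0.18). The largest fold of the 20 belongs to a message with few reads: the potassium-chloride cotransporter SLC12A7 had 1 count in each input and 16 and 8 in the IPs (4.95 ± 0.74). Its summed counts give a ratio of 37.2, with an exact 95% interval of 9.23 to 325 that covers counting error only. The gene was named for its large fold, which the interval does not allow for, and a message could enter the test with few or no counts in the inputs. TAGLN, an actin-binding protein with no membrane segment, had 2 counts in each input and 20 and 9 in the IPs (4.34 ± 0.65), and stands as an exception among the 20.

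Transporters, pumps and channels rose almost without exception. Among tested members, 30 of 31 amino acid transporters, 67 of 70 ion and metal transporters, 99 of 104 carriers of sugars, nucleotides and organic solutes, 18 of 18 ABC transporters, 26 of 27 P-type pumps and 89 of 93 ion channel subunits rose, and none fell. Their medians stood 2.43, 2.62, 2.34, 2.89, 2.81 and 2.75 above that of all genes. By library size with the bait rows counted, the scaling that lowers every other gene most, 476 multi-pass messages of 661 tested still rose and 3 fell, against 627 and 0.

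Within these families the size of the rise varied, and messages with many footprints were found among small and large rises. SLC1A5, the glutamine transporter of many dividing cells, had 12215 and 8011 counts in the inputs and 16576 and 9225 in the IPs and rose by 1.97 ± 0.17. SLC7A8, an exchanger of neutral amino acids, rose by 3.38 ± 0.21, from 51.3 ± 0.392 to 533 ± 69.3 CPM. SLC16A1, the lactate carrier MCT1, rose by 1.79 ± 0.15. Among P-type pumps ATP2A2, the ER calcium pump, rose by 1.64 ± 0.15 and the lipid flippase ATP11A by 3.40 ± 0.23. Among ABC transporters ABCC4, an exporter of organic anions, went from 407 ± 15.6 to 5176 ± 359 CPM (3.67 ± 0.17), and ABCB1, the multidrug exporter, from 547 ± 24.6 to 2574 ± 26.9 CPM (2.23 ± 0.16). Of the channels PIEZO1, which opens on membrane stretch, rose by 2.84 ± 0.19 and the lysosomal chloride exchanger CLCN7 by 2.98 ± 0.19. The calcium channel subunits CACNA1C and CACNA1D, whose 4 repeats make them some of the longest multi-pass proteins, rose by 3.90 ± 0.33 and 3.85 ± 0.28, and TPCN2, a lysosomal channel of related build, by 3.86 ± 0.21.

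Receptors and small multi-pass proteins had lower medians. Of the class A receptors made without a signal peptide 26 of 31 tested rose (median 1.90 above all genes), and the rest of the 180 in the list had too few counts to be tested. With at least 20 counts in the sum of each EMC7 group 19 of 20 rose, and with no filter beyond 1 count in the EMC7 libraries 31 of 75. The chemokine receptor CXCR4 had 152 and 117 counts in the inputs and 172 and 119 in the IPs, 40.2 ± 1.39 against 134 ± 0.599 CPM (1.74 ± 0.22). Multi-pass proteins that start with a signal peptide rose in 53 of 56 cases (median 1.96), among them the Wnt carrier WLS, from 1865 ± 176 to 9876 ± 142 CPM (2.40 ± 0.16), and the endosomal protein TM9SF2 (1.64 ± 0.16). Tetraspanins, claudins, connexins and synaptogyrins, which cross the membrane 4 times, had the lowest multi-pass median, 1.27 above all genes. In that list 50 of 57 rose, but 15 by library size with the bait rows. CD81 rose by 1.00 ± 0.16 and the vesicle protein SYNGR1 by 2.55 ± 0.20. All 20 DHHC palmitoyltransferases tested rose (median 1.77), with ZDHHC9 at 1.34 ± 0.18 and ZDHHC16 at 2.42 ± 0.21.

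Enzymes of lipids, glycans and protein quality control that lie in the ER membrane also rose nearly without exception. The list of N-glycan precursor enzymes and catalytic oligosaccharyltransferase (OST) subunits rose in 27 of 27 cases, 2.88 above all genes. STT3A, the catalytic subunit that glycosylates chains as they enter the ER, had 7846 and 5676 counts in the inputs and 26676 and 16112 in the IPs (3.28 ± 0.16). STT3B, the catalytic subunit that glycosylates sites missed by the first, had 2823 and 1988 in the inputs and 14167 and 8353 in the IPs (3.84 ± 0.17). The mannosyltransferase ALG9 rose by 3.61 ± 0.19, while MPDU1, which has to do with the use of dolichol-linked sugars, rose by 0.56 ± 0.17. All 17 tested genes of GPI anchor synthesis rose (median 2.59), with PIGO, which adds an ethanolamine phosphate, at 2.64 ± 0.17. Of the phospholipid and triglyceride enzymes 33 of 36 rose (median 2.33), among them the phosphatidylserine synthase PTDSS1 (3.40 ± 0.17) and the choline and ethanolamine phosphotransferase CEPT1 (2.56 ± 0.17). Of the sterol and fatty acid enzymes 42 of 43 rose (median 1.83), including LBR (1.83 ± 0.16), the elongase ELOVL5 (2.56 ± 0.17) and SCAP, the sterol sensor that escorts SREBP (3.12 ± 0.19). Its partner INSIG1 rose by 0.67 ± 0.23. Of 31 multi-pass ubiquitin ligases and degradation factors 30 rose (median 2.15), with the ligase MARCHF6 from 1185 ± 71.2 to 13748 ± 592 CPM (3.54 ± 0.17) and the protease ZMPSTE24 from 956 ± 52.5 to 4836 ± 14.5 CPM (2.34 ± 0.16).

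**Figure D3:**
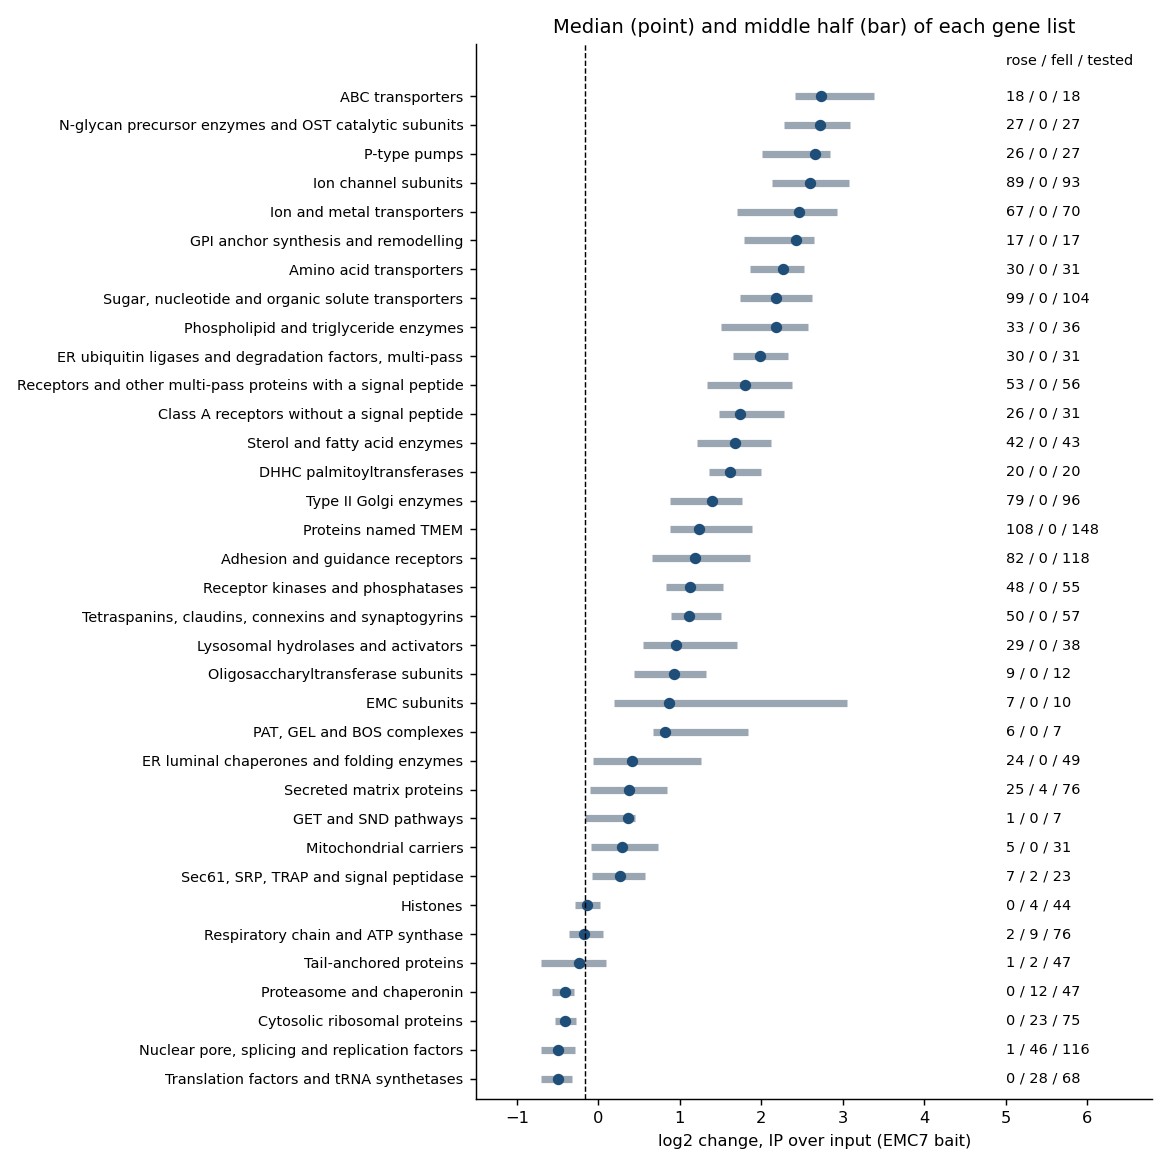
Median log2 change (point) and quartiles of the members (bar) of 35 gene lists, IP over input with the EMC7 bait, with the counts risen, fallen and tested at the right; the dashed line is the median of all 9478 genes, -0.16. Lists of multi-pass proteins fill the top, with ABC transporters 2.89 above the line, and translation factors lie lowest, 0.33 below it.

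Single-pass proteins followed, with 209 of 269 risen and none fallen, 1.42 above all genes (103 risen and 34 fallen by library size with the bait rows). Type II Golgi enzymes, whose catalytic domain is in the lumen behind an N-terminal anchor, rose in 79 of 96 cases (median 1.55). GALNT2, which starts O-glycans, had 2761 and 1797 counts in the inputs and 2251 and 1569 in the IPs, 672 ± 56.4 against 1765 ± 17.1 CPM (1.39 ± 0.17). The mannosidases MAN2A1 and MAN2A2, which trim N-glycans in the Golgi, rose by 2.31 ± 0.17 and 2.94 ± 0.27. Receptor kinases and phosphatases rose in 48 of 55 cases (median 1.29), with the growth factor receptor MET at 1.31 ± 0.17, and adhesion and guidance receptors in 82 of 118 (median 1.34). Some members of the adhesion list with many footprints did not pass. The amyloid precursor APP had 22887 and 14731 counts in the inputs and 6815 and 4453 in the IPs, 5544 ± 508 against 5175 ± 186 CPM, and stood at -0.10 ± 0.16 (adjusted p = 0.684), with libraries that overlap. BSG, the chaperone of lactate carriers, stood at 0.10 ± 0.15 and the cadherin CDH2 at -0.24 ± 0.16. The protocadherin PCDHGB6, which shares its constant exons with other genes of its cluster so that its counts are uncertain, rose by 2.16 ± 0.19.

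Secreted and luminal proteins were mixed. Of 76 secreted matrix proteins 25 rose and 4 fell (median 0.54 above all genes), of 38 lysosomal hydrolases and activators 29 rose (median 1.11), and of 49 ER luminal chaperones and folding enzymes 24 rose (median 0.57). Scaled on these lists themselves, 41 of the 163 rose and 45 fell. The 4 that fell were large matrix proteins: versican (VCAN) went from 2485 ± 145 to 1569.9 ± 149 CPM (-0.66 ± 0.17), the collagens COL4A5, COL2A1 and COL4A1 stood at -0.78 ± 0.18, -0.53 ± 0.17 and -0.47 ± 0.18. Fibrillin FBN2, with the most footprints of the list, did not pass (-0.29 ± 0.16, adjusted p = 0.183). The luminal list was split as well. Calreticulin (CALR), the chaperone of glycoproteins, had 34127 and 24749 counts in the inputs and 28910 and 23919 in the IPs, 8757 ± 65.2 against 24798 ± 3238 CPM (1.50 ± 0.19), and the glucosidase subunit GANAB rose by 1.82 ± 0.15. Calumenin (CALU), a calcium-binding luminal protein, stood at -0.22 ± 0.16 (adjusted p = 0.305). Among lysosomal proteins the glucuronidase GUSB rose by 2.13 ± 0.18 and NAGLU by 2.14 ± 0.19, while the sphingolipid activator precursor PSAP, with the most footprints of the list, stood at -0.23 ± 0.16 (adjusted p = 0.285).

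Lists of proteins made outside the ER had medians close to that of all genes or lower, apart from mitochondrial carriers. Tail-anchored proteins, which enter membranes after translation ends, had 1 rise and 2 falls among 47 tested and a median 0.08 below all genes. Most had few counts: 18 had at least 20 in the sum of each EMC7 group, and with that filter the median lay 0.09 above all genes. SEC22A, the 1 that rose (0.84 ± 0.26), is a multi-pass member of the SEC22 family in spite of the list it was put in, and VAPA and FAR1 stood at -0.95 ± 0.30 and -0.92 ± 0.27. Mitochondrial carriers are multi-pass proteins of another membrane, and 5 of 31 rose (16.1%, against 20.1% of all genes tested, with a median 0.45 above theirs), among them MTCH1, of the outer membrane, from 29.7 ± 0.792 to 77.2 ± 13.1 CPM (1.39 ± 0.21), SLC25A26 (2.03 ± 0.34) and SLC25A44 (1.95 ± 0.31). The adenine nucleotide carrier SLC25A5, with the most footprints, stood at -0.17 ± 0.17. Of 76 subunits of the respiratory chain and ATP synthase 2 rose, NDUFA9 (1.19 ± 0.18) and COX4I1 (0.52 ± 0.16), and 9 fell (11.8%, close to the 10.8% of all genes tested). How much of the microsome preparation was mitochondria was not measured.

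Cytosolic and nuclear messages fell in part, against 10.8% of all genes tested. Of 75 ribosomal proteins 23 fell, of 47 proteasome and chaperonin subunits with cytosolic chaperones 12, of 68 translation factors and tRNA synthetases 28, of 116 nuclear pore, splicing and replication factors 46, and of 44 histones 4, or 9.09%, which is no more than the share of all genes. NUP155, a nucleoporin that lines the pore membrane, was the 1 member of these lists that rose (0.55 ± 0.16). The medians lay 0.25 to 0.33 below all genes for the first 4 lists and 0.02 above for histones. Of the 190 messages in the first 3 lists 63 fell, 128 did with replicate numbers as a block, and 26 to 35 did without any 1 of the EMC7 libraries. With the libraries scaled on these lists 1 fell, since that scaling places them at 0, so these falls are a distance from the other messages. The elongation factor EEF1A1 had 17927 and 12368 counts in the inputs and 3427 and 2196 in the IPs (-0.80 ± 0.21, adjusted p = 0.00398), whereas EEF2, which moves the ribosome along the message, did not pass (-0.13 ± 0.17). HSP90AA1 stood at -0.76 ± 0.18, the ribosomal protein RPS4X at -0.54 ± 0.17, and HNRNPA2B1, a splicing factor, went from 2371 ± 619.7 to 1159.7 ± 57.8 CPM (-1.03 ± 0.17). Genes of ribosomal proteins and histones share near-identical copies, and their counts are uncertain.

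Among messages with at least 10 CPM in the inputs, the largest falls were in no list. The 20 largest ran from -1.64 to -2.43, and all had few reads, 1 to 15 in an IP. They include the corepressor subunit SUDS3, with 50 and 35 counts in the inputs and 4 and 1 in the IPs (-2.43 ± 0.55), the ESCRT subunit TSG101, with 101 and 75 against 13 and 4 (-1.74 ± 0.34), the ciliary protein CEP290, with 148 and 120 against 15 and 11 (-1.73 ± 0.28), and VAC14, a scaffold of phosphoinositide kinase at endosomes (-1.69 ± 0.45). Messages with many reads that fell are given here as examples chosen after their values were seen. Spectrin SPTAN1 had 3809 and 2132 counts in the inputs and 417 and 246 in the IPs (-1.52 ± 0.20), the spectraplakin MACF1 stood at -1.44 ± 0.23, clathrin heavy chain CLTC at -1.03 ± 0.19 and nucleolin NCL at -0.97 ± 0.17. The giant scaffold AHNAK stood at -1.57 ± 0.50 (adjusted p = 0.0404), with 2705 and 893 counts in the inputs and 322 and 73 in the IPs, the widest gap between replicates among these.

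The messages of the machinery at the ER membrane, including that of the complex itself, were enriched according to subunit. EMC1 (chromosome 1, 19215660 to 19251524) had 4615 and 3076 counts in the inputs and 6723 and 4649 in the IPs, 1137 ± 76.2 against 5249.7 ± 21.5 CPM (2.21 ± 0.17, adjusted p = 1.5e-13). EMC3 rose by 3.46 ± 0.18 and EMC4 by 3.34 ± 0.18, the strongest of the complex after the bait. EMC6, EMC10 and MMGT1 (EMC5) rose by 1.14 ± 0.24, 0.60 ± 0.18 and 0.57 ± 0.22, of which the last stood at the threshold (adjusted p = 0.0468), and EMC10 and MMGT1 went below 0 by library size alone and did not pass without input 1 or without IP 2. EMC6 did not pass without IP 1. EMC2, EMC8 and EMC9, which lie in the cytosol, gave values without a call, at -0.61 ± 0.40, -0.16 ± 0.37 and 0.07 ± 0.55, with 5 to 60 counts per library.

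In the OST 9 of 12 subunits rose. Beside both catalytic subunits, the single-pass RPN1 (ribophorin I) rose from 1526 ± 34.9 to 4913 ± 71.1 CPM (1.69 ± 0.16), while its partner RPN2 stood at 0.30 ± 0.15 (adjusted p = 0.128), DDOST at 0.39 ± 0.15 (adjusted p = 0.0459) and MAGT1 at 1.21 ± 0.17. Of the multi-pass translocon that shares clients with the EMC, 6 of 7 tested subunits of the PAT, GEL and BOS complexes rose. CCDC47 rose by 1.86 ± 0.15, NCLN (nicalin) by 2.23 ± 0.16, TMEM147 by 1.82 ± 0.20 and TMCO1, an insertase related to EMC3, by 0.82 ± 0.17. In the list of Sec61, SRP, TRAP and signal peptidase 7 of 23 rose (30.4%) and 2 fell (8.70%), against 20.1% and 10.8% of all genes tested. The channel SEC61A1 rose by 1.33 ± 0.17, SEC63 by 2.17 ± 0.19 and the SRP receptor subunit SRPRB by 1.71 ± 0.19, and the soluble SRP54 and SRP19 stood at -0.74 ± 0.21 and -1.25 ± 0.44. The tail-anchor and SND pathways had 1 rise in 7 (14.3%), TMEM208 (1.13 ± 0.18).

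**Figure D4:**
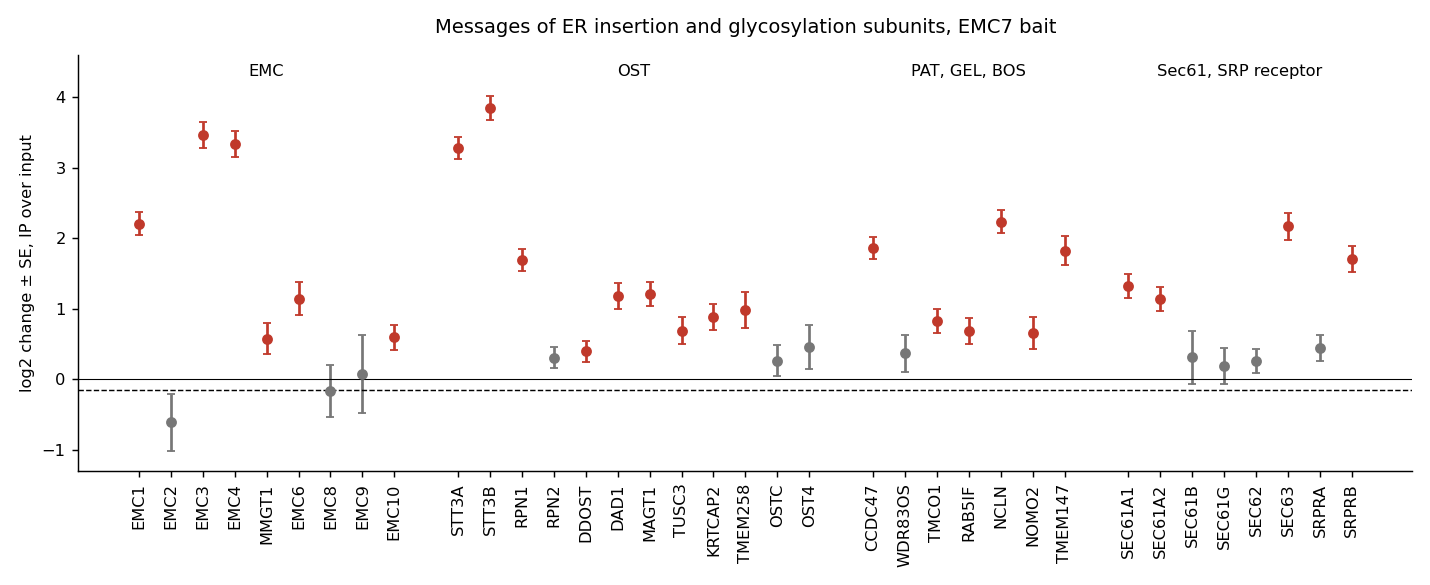
log2 change ± SE (IP over input, EMC7 bait, 2 libraries each) of subunits of the EMC without the bait, the OST, the PAT, GEL and BOS complexes and the Sec61 channel with the SRP receptor; red points passed the test, grey did not, and the dashed line is the median of all genes, -0.16. STT3B (3.84), EMC3 (3.46) and EMC4 (3.34) lie highest, and EMC2 (-0.61) lies lowest without passing.

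The change with the EMC7 bait was then set against the mean of the changes with EMC6 and EMC10, which asks what ribosomes held by EMC7 carried beyond those held by the other baits. In the test of this difference 55 genes were higher with EMC7 and 6 lower, 0.58% and 0.0633% of all genes tested and 0.644% together. The 55 include EMC7 itself, and all 54 others also rose against their own input. Their differences ran from 0.77 to 2.57 in log2, with a median of 1.03. The largest classes among them were single-pass proteins (14 of 269 tested, 5.20%) and secreted or luminal proteins (9 of 163, 5.52%), and 24 were in no list. The fit also gave 766 genes with an unadjusted p under 0.05. The EMC6 libraries, which enter the mean of the other baits, are unlike the rest. Their IPs held 515302 and 960279 gene counts, of which the bait took 0.449% and 0.431%. Rows that name no gene held 9.28% to 12.5% of the counts in them, against 2.76% to 5.15% in the EMC7 and EMC10 libraries.

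The calls fell unevenly over the lists. Of the type II Golgi enzymes 11 of 96 tested were higher with EMC7 (11.5%), of the lysosomal hydrolases 5 of 38 (13.2%) and of the luminal folding enzymes 4 of 49 (8.16%), against 0.58% of all genes tested. Other lists of the same classes had few calls or none. Secreted matrix proteins had 0 of 76 higher, receptor kinases and phosphatases 0 of 55, and adhesion and guidance receptors 3 of 118 (2.54%). Of the multi-pass class 4 of 661 were (0.605%), close to the background, among them the magnesium transporter homologue CNNM3, the ABC transporter ABCA5 and the lysosomal channel MCOLN2, at 0.90, 1.00 and 1.24. EMC1 was 1.54 ± 0.19 higher than with the other baits (adjusted p = 5.95e-06), at 2.14 and 2.28 in the EMC7 pairs, 0.46 to 0.82 in the EMC10 pairs and 0.69 and 0.75 in the EMC6 pairs. RPN1 was 1.23 ± 0.18 higher (adjusted p = 0.000185), at 1.69 and 1.68 against 0.37 to 0.63 in the other 5 pairs. In both, the EMC7 pairs lay well above all others, and both passed without any 1 of the EMC7 libraries.

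The Golgi mannosidases MAN2A1 and MAN2A2 were 1.23 ± 0.20 and 1.65 ± 0.32 higher. HS6ST1, a heparan sulfate sulfotransferase that is also type II, was 1.44 ± 0.31 higher. Among ER enzymes, the glucosidases that take part in the calnexin cycle were higher, MOGS by 0.91 ± 0.19 and GANAB by 0.88 ± 0.18. The lysosomal enzymes GUSB (1.08 ± 0.22) and GALC (1.36 ± 0.31) were higher as well. GALC varied between replicates, at 1.28 and 2.17 in the EMC7 pairs. PIGK, the protease subunit of the GPI transamidase, was 0.99 ± 0.20 higher, and its pairs stood at 1.56 and 1.62 with EMC7 and at 0.10 to 1.12 with the others. Outside the lists, ERMP1, a multi-pass ER peptidase, was 1.27 ± 0.21 higher and DISP1, which releases cholesterol-linked Hedgehog, 1.16 ± 0.25 higher. MAN2A1 and ERMP1 passed without any 1 EMC7 library but input 2, where both had an adjusted p of 0.0552. The largest differences were those of BMP8B, a secreted growth factor with 12 to 30 counts in the EMC7 libraries (2.57 ± 0.55), and GLB1L, a relative of the lysosomal galactosidase (1.66 ± 0.37), followed further down by the synaptic adhesion protein NLGN1 (1.40 ± 0.33). BMP8B stood at -2.31 in 1 of the EMC6 pairs, and without the EMC6 line its difference was 1.68 (adjusted p = 0.0506). NLGN1 went to 0.94 (adjusted p = 0.0793) in that setting, and PIGK and GUSB kept their calls at 0.58 and 0.69. MAN2A2, HS6ST1, MOGS, GANAB, PIGK, BMP8B and NLGN1 kept their sign but lost their calls whichever EMC7 library was left out. GUSB kept its call only without IP 2, GALC and DISP1 only without IP 1, and GLB1L only without input 1 or without IP 2. Without IP 2 the difference of GALC was 0.91.

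**Figure D5:**
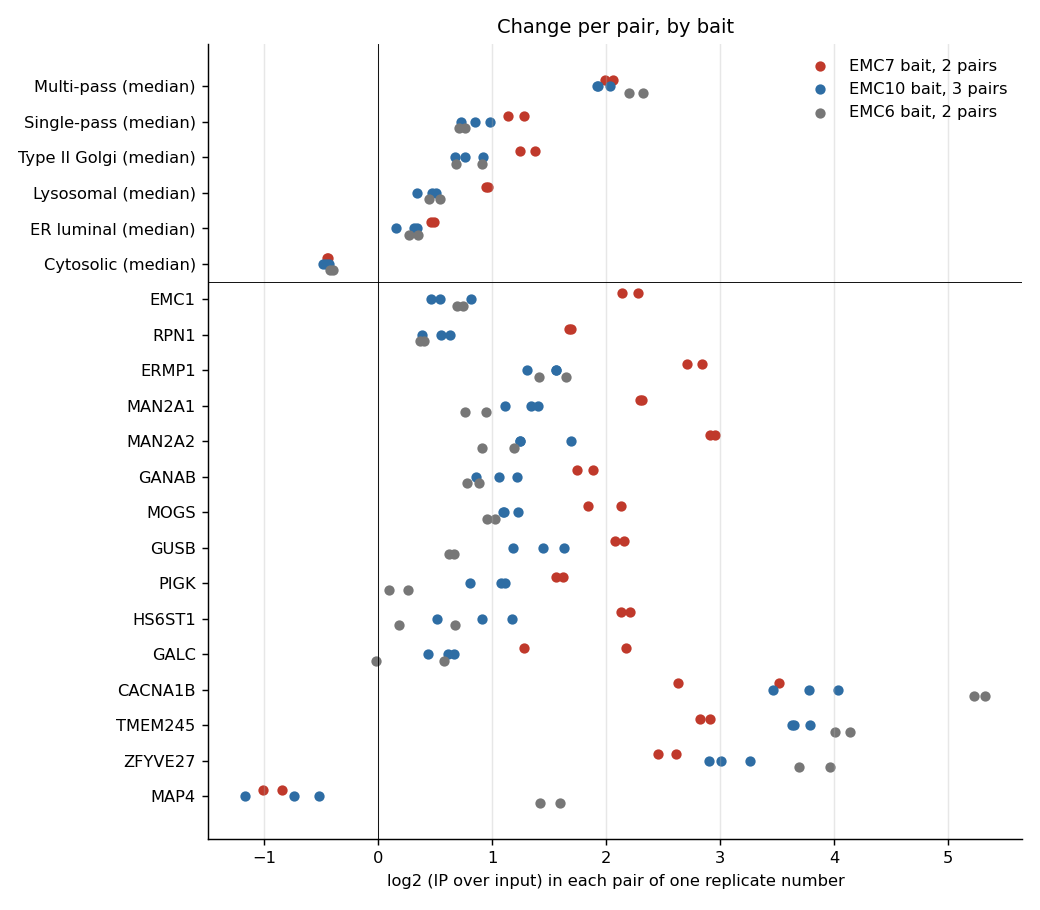
log2 (IP over input) in each of the 7 pairs of the series, by bait (red EMC7, blue EMC10, grey EMC6): medians of 6 lists or classes above the line, single genes below it. For the single-pass, type II Golgi, lysosomal and ER luminal medians both EMC7 pairs lie above the other 5, for the multi-pass median they lie among them, and for EMC1 they stand at 2.14 and 2.28 against 0.46 to 0.82.

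Medians of whole lists were then set side by side by pair. Relative to all genes, the type II Golgi median stood at 1.36 and 1.51 in the EMC7 pairs against 0.80 to 1.06 in the other 5, the lysosomal median at 1.07 and 1.08 against 0.47 to 0.65, and the ER luminal median at 0.58 and 0.62 against 0.29 to 0.48. The multi-pass median stood at 2.12 and 2.18, within the other 5 pairs at 2.05 to 2.43. Multi-pass lists went both ways. Multi-pass proteins with a signal peptide stood at 1.85 and 1.98 against 1.27 to 1.50, and GPI anchor synthesis at 2.36 and 2.53 against 1.99 to 2.23. The carriers of sugars, nucleotides and organic solutes lay below the other 5 pairs, at 2.16 and 2.31 against 2.36 to 2.83, as did the DHHC list at 1.72 and 1.75 against 1.77 to 2.16. Tetraspanins and their like (1.21 and 1.27 against 1.29 to 1.56) and N-glycan enzymes (2.76 and 2.89 against 2.90 to 3.04) also lay below. Phospholipid and triglyceride enzymes did as well (2.19 and 2.28 against 2.29 to 2.79). In shares of counts, which amount to scaling by library size without the bait rows, type II Golgi enzymes took 1.68 and 1.79 times their input share with EMC7 and 0.988 to 1.25 times with the others. The multi-pass class took 2.66 and 2.48 times its input share with EMC7, below the 2.82 to 4.18 times of the other 5 pairs. These lists were chosen with the other lines' results known, and the medians carry no test.

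How many genes differ rests on the fit. All 54 genes had both EMC7 pairs above the other 5 pairs, as did 8.94% of all genes tested, and all 54 were also higher against EMC10 alone and against EMC6 alone, though 8 and 27 of them passed those tests in the same fit. The genes were picked by the difference in these same libraries, so the order of the pairs and the signs follow largely from that choice. Against EMC10 alone 0.095% of all genes tested were higher and 0.0106% lower, and against EMC6 alone 0.338% and 0.19%. Without the EMC6 line 160 genes were higher than with EMC10 and 7 lower, and 51 of the 55 were among the 160. With replicate numbers as a block 393 were higher and 210 lower, and the common dispersion was 0.00363, against 0.0145 in the main fit. Without a single EMC7 library 8 (input 1), 9 (IP 1), 3 (input 2) and 9 (IP 2) stayed higher by the test, and 1 with libraries scaled on the cytosolic lists, a scaling under which the common dispersion of the fit rose from 0.0145 to 0.0278. All 55 differences kept their sign under every setting run. In the inputs none of the 54 differed between the EMC7 and EMC10 lines by the test, with differences of -0.51 to 0.25 in log2.

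Beside the baits of the other lines, 4 messages were lower with EMC7, and in 2 of them both EMC7 pairs lay below the other 5, as in 5.81% of all genes tested. The calcium channel subunit CACNA1B stood at 3.05 ± 0.28 against 5.82 with EMC6 and 3.94 with EMC10 (difference -1.83 ± 0.40), TMEM245 at 2.87 ± 0.20 against 4.07 and 3.70 (-1.01 ± 0.23) and ZFYVE27, an ER-shaping protein, at 2.55 ± 0.19 against 3.83 and 3.06 (-0.90 ± 0.22). MAP4, a microtubule-associated protein, stood at -0.91 ± 0.24 with EMC7 and -0.80 with EMC10, but at 1.49 with EMC6, so that its difference of -1.26 ± 0.27 is a difference from the EMC6 line. Without that line it stood at -0.11 (adjusted p = 0.977), CACNA1B at -0.90 (adjusted p = 0.171) and ZFYVE27 at -0.52 (adjusted p = 0.121), while TMEM245 kept its call at -0.83 (adjusted p = 0.000988). CACNA1B also went to -1.17 without EMC7 input 1. It lost its call without input 1, without IP 1 and without IP 2, and kept it only without input 2. TMEM245, ZFYVE27 and MAP4 lost their calls whichever EMC7 library was left out.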

How the data were processed

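Ribosome footprints of the EMC7 line were compared between 2 inputs and 2 IPs, within a fit of all 14 libraries. The deposited values are raw counts per gene symbol from the authors, with no normalization. Per the submitters' processing notes, cutadapt 4.1, Bowtie2 2.2.6, TopHat2 2.1.0 and the build hg38 were used; the annotation, the strand setting and the treatment of duplicate reads were not stated in what was used here. The 5 rows that name no gene held 4.68% and 4.69% of the counts in the EMC7 inputs and 2.76% and 3.15% in the IPs and were left out. Symbols were matched to a RefSeq table of GRCh38.p14, 18968 by symbol and 397 by synonym, with 75 unmatched; coordinates come from it.

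The main test was the quasi-likelihood test of edgeR 4.0.16 (R 4.3.3, limma 3.58.1, robust fit) with a mean for each line and fraction, filterByExpr, TMM normalization with the rows of the 3 baits left out of library sizes, and Benjamini-Hochberg adjustment over 9478 genes. SE is the log2 change over the root of F. The difference between baits is the contrast of the EMC7 change with the mean of the EMC6 and EMC10 changes. Per-pair log2 values add a prior count of 2 and are descriptions. The labels give IP and input of a number as 1 batch, which pairs them. In the EMC7 libraries their deviations from the group means correlated at r = 0.072. The main fit leaves the pairing out, and the fit with the pair as a block is an alternative. Over all 14 libraries the block lowered the common dispersion from 0.0145 to 0.00363, so the number of calls depends on the pairing. The fit was first tested on simulated data, with 50 changes planted at each fold. It recovered 14% of those of 1.5-fold, 56% of 2-fold, 88% of 4-fold and 94% of 8-fold, with 9 false calls among 135. Far fewer genes were changed there than moved in these IPs.

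The gene lists were written from general knowledge of topology and role, and members and lists were chosen with earlier results of these data known. Genes named are, among called genes that moved one way in both pairs and reached 10 CPM in a fraction, from the 20 largest rises and falls; in each list, from the 2 of highest level, the 2 of largest and the 2 of smallest change and any called against its list; the EMC and ER machinery; and, for the difference, the 8 largest on each side. VAPA, FAR1 and MTCH1, the abundant messages that fell, and for the difference RPN1, MAN2A1, GANAB, MOGS, GUSB, PIGK, ERMP1, DISP1, CNNM3, ABCA5 and MCOLN2 were chosen after their values were seen. Alternatives were other scalings (DESeq2 1.42.0 size factors among them), filters, tools, a fold threshold, the replicate block and leaving out libraries. A planned count of predicted membrane segments was not run, since no protein sequences were used here. Precision is limited by counting in genes with few reads and by 2 libraries a group. A few genes that the rule names are not reported here.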

Additional observations from a re-analysis of the deposited data

Results flagged for a closer look

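The change with the EMC7 bait differed by the test from the mean of the changes with EMC6 and EMC10 for the messages given here, which is what singled them out; differences are in log2. Higher with EMC7 were the EMC subunit EMC1 (1.54) and the OST subunit RPN1 (1.23). Of Golgi enzymes, MAN2A1 (1.23), MAN2A2 (1.65) and HS6ST1 (1.44) were higher. Of ER glucosidases, GANAB (0.88) and MOGS (0.91) were. Of lysosomal enzymes, their relatives and secreted proteins, GUSB (1.08), GALC (1.36), GLB1L (1.66) and BMP8B (2.57) were. The others were PIGK (0.99), NLGN1 (1.40), ERMP1 (1.27), DISP1 (1.16), CNNM3 (0.90), ABCA5 (1.00) and MCOLN2 (1.24). Lower with EMC7 were CACNA1B (-1.83), MAP4 (-1.26), TMEM245 (-1.01) and ZFYVE27 (-0.90). Their adjusted p-values in edgeR ran from 5.95e-06 for EMC1 to 0.0404 for ZFYVE27. Why they differ was not tested.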

How the results depend on the processing

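The bait message rose under all settings run, by 5.63 to 5.75 without any 1 EMC7 library, and 557 to 614 multi-pass messages rose without any 1. Without any 1 library the ranges were 1565 to 1772 rises, 460 to 666 falls, 179 to 201 single-pass and 64 to 79 secreted rises, 26 to 35 cytosolic falls, and 3 to 9 genes higher and 2 to 3 lower than with the other baits. Of the falls, 5144 were called by library size without the bait rows, 6021 with them, 3740 scaled on the secreted lists, 77 on the cytosolic lists, 554 by DESeq2's Wald test, 122 against a fold of 1.5 and 1590 with the replicate block; without the EMC6 line 177 and 4544 were called with the cytosolic and secreted scalings. By library size 1196 (without bait rows) and 1005 (with them) messages rose, among them 124 and 103 single-pass and 35 and 22 secreted; 41 secreted messages rose with the secreted scaling, 43 with it and without the EMC6 line, and 44 against a fold of 1.5. Cytosolic falls numbered 39 with DESeq2 size factors, 185 and 189 by library size, 174 and 1 with the secreted and cytosolic scalings, 36 by DESeq2's test, 96 in the 4 EMC7 libraries alone, 1 against a fold of 1.5, 128 with the block and 99 without the EMC6 line (6 and 186 with the cytosolic and secreted scalings).

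Genes higher and lower with EMC7 than with the other baits numbered 25 and 4 with DESeq2 size factors, 55 and 37 by library size without the bait rows, 51 and 37 with them, 24 and 83 with the secreted and 1 and 2 with the cytosolic scaling, 145 and 24 without a filter, 119 and 31 by DESeq2, 2 and 2 against a fold of 1.5, 393 and 210 with the block, 160 and 7 without the EMC6 line (112 and 5 with the cytosolic, 15 and 58 with the secreted scaling), 9 and 1 against EMC10 alone and 32 and 18 against EMC6 alone. Calls near the threshold were lost without 1 library: DDOST, COX4I1, RPS4X, MMGT1, EMC10, EMC6, MPDU1, INSIG1, SEC22A, NUP155, COL2A1, COL4A1, VCAN, VAPA, FAR1, SRP19, SRP54, VAC14 and AHNAK each without at least 1. Of the differences, all named but EMC1 and RPN1 lost their call without at least 1. MAN2A2, HS6ST1, GANAB, MOGS, PIGK, BMP8B, NLGN1, CNNM3, ABCA5, MAP4, TMEM245 and ZFYVE27 lost it whichever EMC7 library was left out.

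Scaling turned the sign of small changes. By library size with the bait rows EMC10 stood at -0.40, MMGT1 at -0.42, INSIG1 at -0.32, MPDU1 at -0.44, BSG at -0.90, SEC22A at -0.15, COX4I1 at -0.47, NUP155 at -0.44, RPN2 at -0.69, DDOST at -0.60 and TMCO1 at -0.18; without them EMC10 at -0.18, MMGT1 at -0.20, INSIG1 at -0.10, MPDU1 at -0.22, BSG at -0.68, COX4I1 at -0.25, NUP155 at -0.22, RPN2 at -0.47 and DDOST at -0.38. With the secreted scaling EMC10 stood at -0.016, MMGT1 at -0.054, MPDU1 at -0.059, BSG at -0.51, COX4I1 at -0.0811, NUP155 at -0.056 and DDOST at -0.21; without the EMC6 line as well, EMC10 at -0.060, MMGT1 at -0.089, MPDU1 at -0.10, BSG at -0.55, COX4I1 at -0.12, NUP155 at -0.10, RPN2 at -0.35 and DDOST at -0.25. These follow from the median of all genes, -0.16 with TMM, which stood at -0.07 with DESeq2 size factors, -0.93 and -1.15 by library size, -0.76 with the secreted and 0.27 with the cytosolic scaling. The settings without the EMC6 line, against 1 other bait and with both changes were chosen after seeing the data. The replicate block left the direction of every named gene as it was and lost none of their calls. Segments predicted from protein sequence were not run.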
